A study of Mus musculus with 9 samples.

Results

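The testis-specific serine kinases (TSSKs) are protein kinases that are made in germ cells after meiosis, while round spermatids reshape into sperm. The 6 genes described here are the kinase genes *Tssk1*, *Tssk2*, *Tssk3*, *Tssk4* and *Tssk6* and the gene *Tsks*, which encodes a substrate of the kinases TSSK1 and TSSK2. They were taken by name from the 32035 genes of the testis transcriptomes, and all 6 passed the filter on low counts in every comparison. RNAseq of whole testes was available for 3 samples each of WT (C57Bl6/N), *Kpna6*ΔIBB/ΔIBB and *Kpna6*-/- male mice, labelled as 15 weeks old. *Kpna6* encodes importin α7, which carries proteins with a nuclear localization signal into the nucleus together with importin β.

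In *Kpna6*ΔIBB/ΔIBB mice, exon 2 of *Kpna6* is deleted, and a shortened protein without the importin β binding domain remains. In *Kpna6*-/- mice, a gene trap sits in intron 1. According to the study, a germ cell promoter downstream of the trap still yields full-length protein in the germ cells of this line, but not in its Sertoli cells. These testes are therefore not a complete null. The study also reported fewer Sertoli cells in adult testes of both lines. *Kpna6*-/- males had a reduced sperm count and were fertile, whereas *Kpna6*ΔIBB/ΔIBB males had small testes, very few sperm and were sterile. Both alleles had been crossed back to C57Bl6/N for 10 generations. Whole testis was sequenced, so for every gene below fewer cells of a type and less RNA per cell cannot be told apart.

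TSSK1 and TSSK2 bind TSKS, which anchors them at a ring-shaped structure near the centrioles of elongating spermatids. TSSK4 phosphorylates ODF2, a protein of the outer dense fibres of the sperm tail. TSSK6, also known as SSTK, is needed for DNA condensation in spermatids, and its activity depends on the heat shock protein HSP90 and on the small co-chaperone TSACC. TSSK3 can be activated by the kinase PDPK1 in vitro.

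The genes lie on 5 chromosomes (GRCm38). *Tssk1* (chr16:17894223-17897922, plus strand) and *Tssk2* (chr16:17898637-17900024, plus strand) are neighbours, 714 bases apart, and have 1 exon each. *Tssk6* (chr8:69902184-69903518, plus strand) also has 1 exon. *Tssk3* (chr4:129489014-129491022, minus strand) has 2 exons and lies 153.0 kb from *Kpna6*. *Tssk4* (chr14:55650184-55652539, plus strand) has 4 exons and *Tsks* (chr7:44943204-44958035, plus strand) has 11.

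*Tssk1* and *Tssk2* are close paralogues, which bears on how reads can be assigned to them. Their transcripts matched at 84.4% of 964 aligned bases, and the longest identical run was 113 bases within both coding sequences. The 120 bases around that run are printed from the GENCODE transcripts because reads from within it fit both genes equally well, and capitals mark the 2 positions where the stretches differ.
*Tssk1*, chr16:17894720-17894839, plus strand: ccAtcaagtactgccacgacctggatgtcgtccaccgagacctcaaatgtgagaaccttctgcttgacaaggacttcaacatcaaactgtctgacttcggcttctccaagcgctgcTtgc
*Tssk2*, chr16:17899102-17899221, plus strand: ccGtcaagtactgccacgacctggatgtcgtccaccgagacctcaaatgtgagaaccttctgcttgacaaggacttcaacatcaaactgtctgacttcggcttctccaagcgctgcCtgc
The *Tssk1* transcript shared 170 of its 3670 distinct 31-base words with *Tssk2* (4.63%), and the same words made up 12.5% of those of the shorter *Tssk2* transcript. A second overlap concerned *Tssk6*, of which 375 exonic bases lie opposite to exons of *Ndufa13*, a gene for a subunit of mitochondrial complex I. The shared words made up 26.4% of the *Tssk6* transcript. *Tssk1* lies within the antisense gene *Dgcr2* but shares only 0.926% of its words with it. The library kit does not mark the strand, so reads from these overlaps cannot be told apart by strand.

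The promoter windows of the 6 genes, 300 bases each in the RefSeq table (GRCm38.p6), were searched on both strands for the cAMP response element TGACGTCA, its core TGACG and the RFX motif GTTGCC. CREM and RFX proteins are known regulators of spermatid genes. None of the 6 windows held TGACGTCA or GTTGCC, which were found in 1.8% and 12.4% of all 32544 promoter windows. The *Tssk3* window (chr4:129490721-129491020) lay within the gene as placed above, so bases upstream of that gene were not searched. The core TGACG occurred in 1 of the 6, *Tssk6*, and in 20.9% of all windows. Its 150 bases before the start site are shown with the match in capitals, which begins 73 bases before the start.
*Tssk6*, chr8:69902034-69902183, plus strand: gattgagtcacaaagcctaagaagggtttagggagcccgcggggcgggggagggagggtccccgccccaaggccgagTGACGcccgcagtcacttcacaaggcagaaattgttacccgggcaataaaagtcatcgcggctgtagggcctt

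Between 24973189 and 31629697 estimated read counts were deposited per sample. The mutated gene was checked first: *Kpna6* reached 201, 325 and 334 CPM (read counts relative to a library size scaled by the TMM method) in the 3 WT samples. The range was 81.2 to 85.3 CPM for *Kpna6*ΔIBB/ΔIBB samples and 247 to 262 CPM for *Kpna6*-/- samples. *Kpna6* was thus lower in *Kpna6*ΔIBB/ΔIBB (log2 fold change -1.79, adjusted P-value 1.94e-05, edgeR's quasi-likelihood test). The *Kpna6*-/- samples lay below WT replicates 2 and 3 and above WT replicate 1, and *Kpna6* was not called (-0.18, adjusted P-value 0.586), but was called lower without WT replicate 1 (-0.38, adjusted P-value 0.000345). WT replicate 1 was also below the other WT samples at *Hdac1* (151 against 221 and 214 CPM) and *Dcdc2b* (7.29 against 10.9 and 11.98 CPM), near *Kpna6* on the chromosome, and whether it carries a mutant allele was not tested. Without it, the comparisons with WT still called 6 of the 6 genes in the *Kpna6*ΔIBB/ΔIBB line and 0 in the *Kpna6*-/- line. In *Kpna6*ΔIBB/ΔIBB replicate 3, the epididymal genes *Crisp1* and *Adam7* reached 77.0 and 6.99 TPM, against at most 4.23 and 0.169 TPM in any other sample. The other listed epididymal genes were not raised there. *Lcn5* was at 0 in all 9 samples, and *Lcn8* and *Lcn9* were at 0 and 0.073 TPM in that replicate. *Rnase10* was at 5.07 TPM there and at 5.18 TPM in replicate 1 of the line.

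All 6 genes were well expressed in the WT testis. On the TPM scale, which accounts for transcript length, *Tsks* was highest with 569 ± 20.6 TPM (SD, n = 3), above 99.3% of genes. It was followed by *Tssk2* (442 ± 13.4 TPM), *Tssk6* (375 ± 10.5 TPM), *Tssk3* (234 ± 4.5 TPM), *Tssk1* (118 ± 5.97 TPM) and *Tssk4* (102 ± 7.77 TPM). Neighbours in this order did not overlap among the WT samples. The order of the means was the same in both mutant lines, and in *Kpna6*-/- testes the ranges of *Tssk2* (417 to 446 TPM) and *Tssk6* (388 to 425 TPM) overlapped. *Tssk5*, a further gene of the family that is not among the 6, stood lower at 28.0 ± 1.36 TPM in WT.

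*Tssk4* and *Tsks* were measured as more than 1 transcript. The 2 *Tssk4* transcripts in the files kept nearly the same split, with *Tssk4-201* at 80.7% of the TPM of the gene in WT testes. Its share was 79.1% for *Kpna6*ΔIBB/ΔIBB and 79.9% for *Kpna6*-/-. Of the 4 *Tsks* transcripts, *Tsks-201* contributed 41.2%, 41.5% and 41.7% in the same order. The mean shares of these leading transcripts were thus close to each other across the groups.

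The first comparison asked how the testis transcriptome of *Kpna6*ΔIBB/ΔIBB mice differed from WT. All 6 genes were lower in *Kpna6*ΔIBB/ΔIBB testes, by 14.5% to 35.4%, and all 6 passed the test. Lower calls made up 18.9% and higher calls 17.7% of the 18797 genes tested. Among the 2881 genes with a mean of at least 86.9 CPM, the level of the lowest of the 6, lower calls made up 47.8%. The median log2 fold change of the 6 genes was -0.35, beside 0.01 for all genes tested. The 6 genes together held 0.191% to 0.196% of the counts on genes in WT and 0.163% to 0.167% in *Kpna6*ΔIBB/ΔIBB testes.

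**Figure D1:**
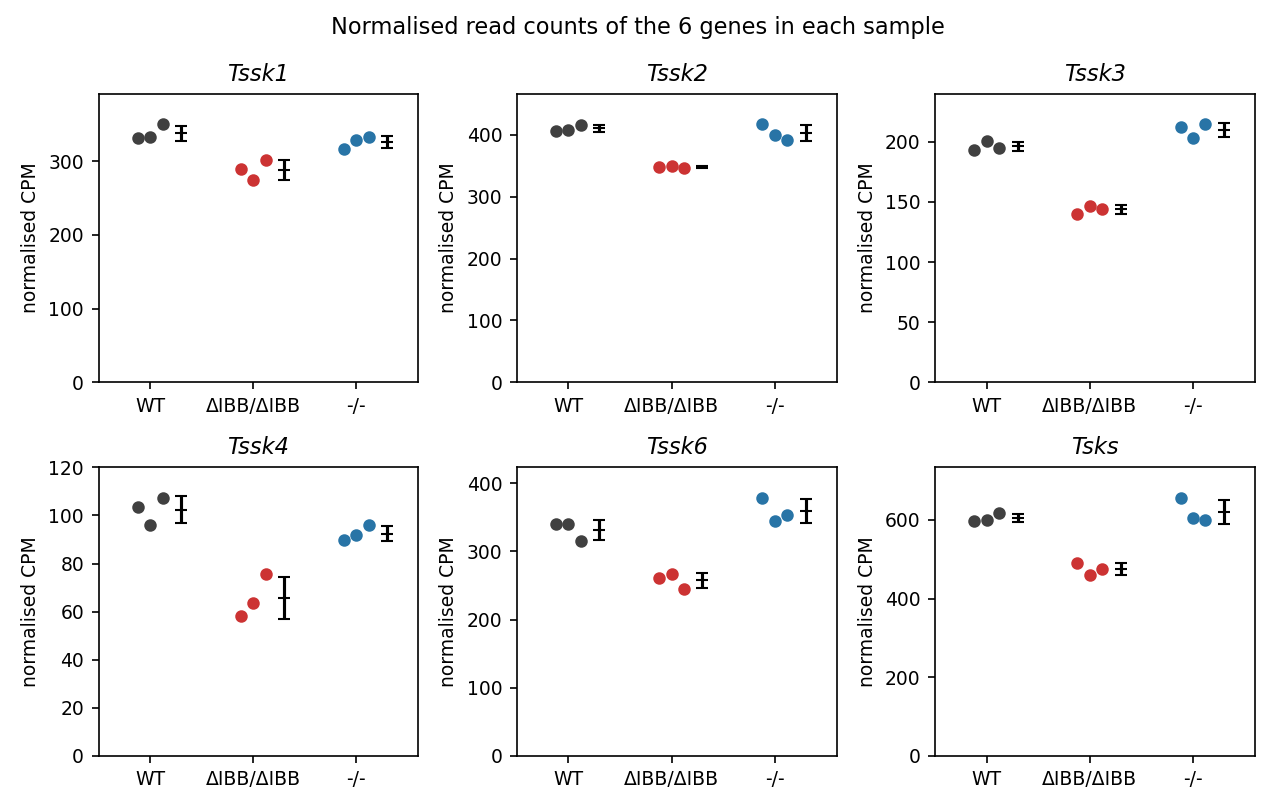
Normalised CPM (vertical axes, starting at 0) of each gene in the 9 samples; points are samples and the bars to their right give the mean and SD of 3 samples. In all 6 panels the 3 *Kpna6*ΔIBB/ΔIBB samples lie below the 3 WT and the 3 *Kpna6*-/- samples.

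*Tssk4*, the kinase of ODF2, showed the largest decrease of the 6. It was measured at 104, 96.1 and 107 CPM in the WT samples and at 58.3, 63.6 and 75.5 CPM in the *Kpna6*ΔIBB/ΔIBB samples. The groups did not overlap. The log2 fold change was -0.63 (SE 0.083, 95% interval -0.81 to -0.45, adjusted P-value 0.000206, edgeR's quasi-likelihood test), and 5.01% of all genes tested had a lower value. Replicate 3, in which *Crisp1* and *Adam7* were raised, had the highest *Tssk4* level of the group, and without it the log2 fold change was -0.74.

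*Tssk3* has the shortest coding sequence of the 5 kinase genes (804 bases) and is the one that lies close to *Kpna6*. Its levels were 194, 200.4 and 195 CPM in WT and 140.0, 147 and 144 CPM in *Kpna6*ΔIBB/ΔIBB testes. The samples within each group were close together and the groups were well apart. It fell by 26.5% (log2 fold change -0.45, SE 0.039, adjusted P-value 2.18e-05, edgeR's quasi-likelihood test).

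*Tssk6*, the kinase that depends on HSP90 and TSACC, was measured at 341, 340.4 and 315 CPM in WT and at 261, 267 and 245 CPM in *Kpna6*ΔIBB/ΔIBB testes. The lowest WT sample was above the highest mutant sample. The decrease was 22.2% (log2 fold change -0.36, SE 0.045, adjusted P-value 0.000156, edgeR's quasi-likelihood test). *Ndufa13*, which shares exonic sequence with *Tssk6* on the other strand, was not called (log2 fold change -0.10, adjusted P-value 0.115), and the summed counts of both genes remained lower (log2 fold change -0.29).

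*Tsks*, the anchoring substrate, had 597, 601 and 617 CPM in WT and 492, 460.2 and 476 CPM in *Kpna6*ΔIBB/ΔIBB testes. Again no mutant sample reached the WT range. The decrease was 21.1% (log2 fold change -0.34, SE 0.036, adjusted P-value 5.47e-05, edgeR's quasi-likelihood test).

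The genes of the kinases bound by TSKS had smaller log2 fold changes than *Tsks* itself, a difference between genes that was not tested. *Tssk1* was at 331, 334 and 350.2 CPM in WT and at 290, 274 and 301 CPM in *Kpna6*ΔIBB/ΔIBB testes, a decrease of 14.5% (log2 fold change -0.23, SE 0.044, adjusted P-value 0.00228, edgeR's quasi-likelihood test). *Tssk2* was at 406, 409 and 417 CPM in WT and at 348, 350.4 and 346 CPM in *Kpna6*ΔIBB/ΔIBB testes, a decrease of 15.0% (log2 fold change -0.23, SE 0.033, adjusted P-value 0.00031). For both genes the groups did not overlap, on the CPM or the TPM scale. With the counts of the paralogues summed, the log2 fold change was -0.23 (adjusted P-value 0.000345), the same direction as for each alone.

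The calls for *Tssk1* and *Tssk2* did not hold in every alternative. Without TMM, using library size only, the median of all genes moved to 0.11 and the calls of all genes shifted from 3547 lower and 3327 higher to 2326 lower and 5416 higher. All 6 genes were still called lower with that scaling. On log2(TPM + 1) values in limma, *Tssk1* (-0.10, adjusted P-value 0.175) and *Tssk2* (-0.11, adjusted P-value 0.0561) no longer passed, while the other 4 genes did. *Tssk5* had 29.5, 30.6 and 26.9 CPM in WT and 19.9, 20.2 and 32.6 CPM in *Kpna6*ΔIBB/ΔIBB testes, and the groups overlapped through replicate 3. It was not called (log2 fold change -0.25, SE 0.159, adjusted P-value 0.245), but passed without that replicate (-0.53, adjusted P-value 0.000544).

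**Figure D2:**
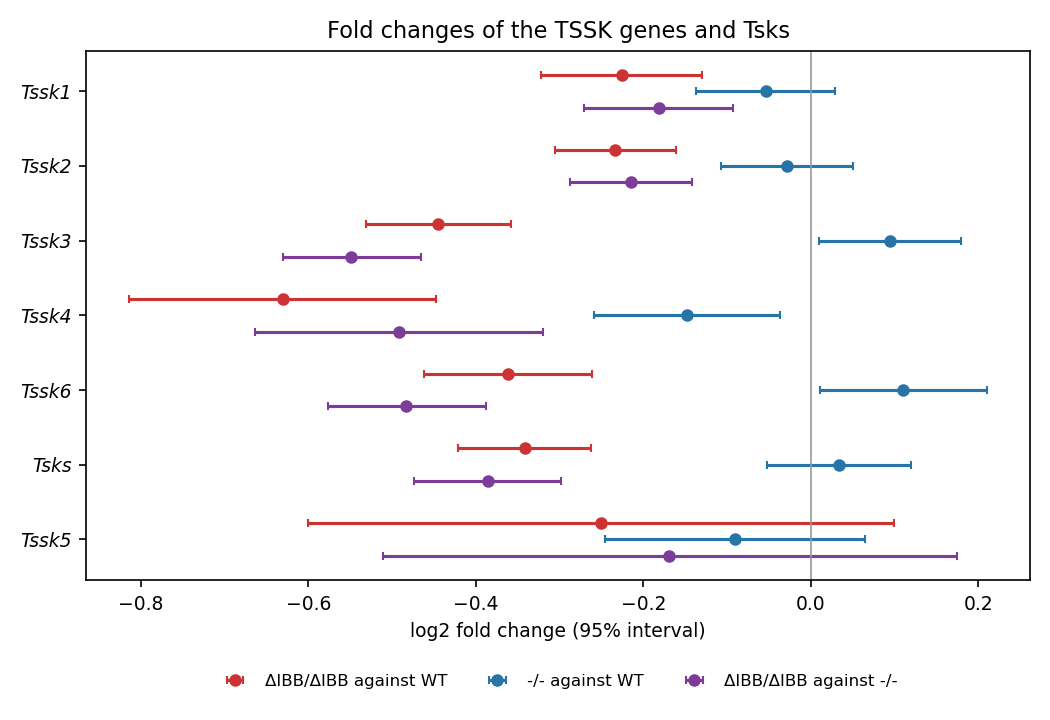
Log2 fold changes (horizontal axis) with 95% intervals from edgeR for the 6 genes and *Tssk5* in the 3 comparisons. For the 6 genes both comparisons with *Kpna6*ΔIBB/ΔIBB lie below 0 with intervals that exclude it, *Tssk4* lying lowest against WT (-0.63) and *Tssk3* against *Kpna6*-/- (-0.55), while the *Kpna6*-/- values lie between -0.15 and 0.11.

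The second comparison asked whether *Kpna6*-/- testes, which retain the full-length protein, differed from WT. With edgeR's quasi-likelihood test 0 of the 6 genes were called, and DESeq2 and limma also called 0. Of all 18681 genes tested, 1.6% were called in either direction. At an unadjusted P-value below 0.05, 3 of the 6 stood out, beside 14.9% of all genes: *Tssk3*, *Tssk4* and *Tssk6*. Their signs differed, and the count was 0 without WT replicate 3 or without *Kpna6*-/- replicate 1 and 2 in limma, with the replicate block and in the fit of all 9 samples.

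*Tssk3* had 212, 203 and 215 CPM in *Kpna6*-/- testes, each above every WT sample (log2 fold change 0.09, 95% interval 0.01 to 0.18, adjusted P-value 0.280, edgeR). *Tssk6* had 379, 344 and 354 CPM, also above every WT sample (0.11, 95% interval 0.01 to 0.21, adjusted P-value 0.282). *Tssk4* had 89.6, 91.7 and 96.1 CPM, below every WT sample (-0.15, 95% interval -0.26 to -0.04, adjusted P-value 0.190). These 3 genes did not pass the adjusted threshold, so the differences are given as values only. *Tssk1* (317 to 333 CPM), *Tssk2* (392 to 417 CPM) and *Tsks* (599 to 656 CPM) overlapped with WT, with log2 fold changes of -0.05, -0.03 and 0.03. The interval for *Tsks* ran from -0.05 to 0.12 and excluded a decrease of the size found in *Kpna6*ΔIBB/ΔIBB testes.

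The mutant lines were then compared with each other. All 6 genes had lower levels in the *Kpna6*ΔIBB/ΔIBB line, beside 16.8% lower and 13.5% higher calls, 30.3% in all, among 18752 genes tested. Among the 2881 genes at or above the level of the lowest of the 6, 44.9% were called lower. These samples include no WT library, but the *Kpna6*ΔIBB/ΔIBB samples are the same as in the first comparison. The largest difference was that of *Tssk3* (log2 fold change -0.55, SE 0.038, adjusted P-value 2.14e-06, edgeR's quasi-likelihood test). *Tssk4* (-0.49), *Tssk6* (-0.48) and *Tsks* (-0.39) followed. *Tssk2* (-0.22, adjusted P-value 0.000504) and *Tssk1* (-0.18, adjusted P-value 0.00532) again differed least. *Tssk1* levels overlapped on the TPM scale, with 105 to 114 TPM in *Kpna6*ΔIBB/ΔIBB and 110.2 to 115 TPM in *Kpna6*-/- testes, and the gene was not called with library size only (-0.08, adjusted P-value 0.132) or in limma on log2(TPM + 1), where *Tssk2* (-0.07, adjusted P-value 0.165) was also lost.

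The balance among the 6 genes can be read without scaling between samples, from the share of each gene in their summed TPM. *Tssk2* made up 23.9% to 24.3% of the sum in WT, 25.5% to 26.2% in *Kpna6*ΔIBB/ΔIBB and 22.9% to 23.6% in *Kpna6*-/- testes. *Tssk1* likewise took a larger share in *Kpna6*ΔIBB/ΔIBB (6.67% to 7.22%) than in WT (6.30% to 6.63%). The shares of *Tssk4* (3.99% to 5.18% against 5.20% to 5.84%) and *Tssk3* (11.4% to 12.2% against 12.6% to 13.0%) were smaller. *Tssk6* and *Tsks* overlapped between WT and *Kpna6*ΔIBB/ΔIBB. In *Kpna6*-/- testes the share of *Tssk4* (4.64% to 5.19%) was below and that of *Tssk6* (21.4% to 21.9%) above the WT range, which was 19.25% to 21.03% for *Tssk6*. With 3 samples against 3, an exact permutation test on a share cannot fall below P = 0.1, so the shares are descriptive.

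**Figure D3:**
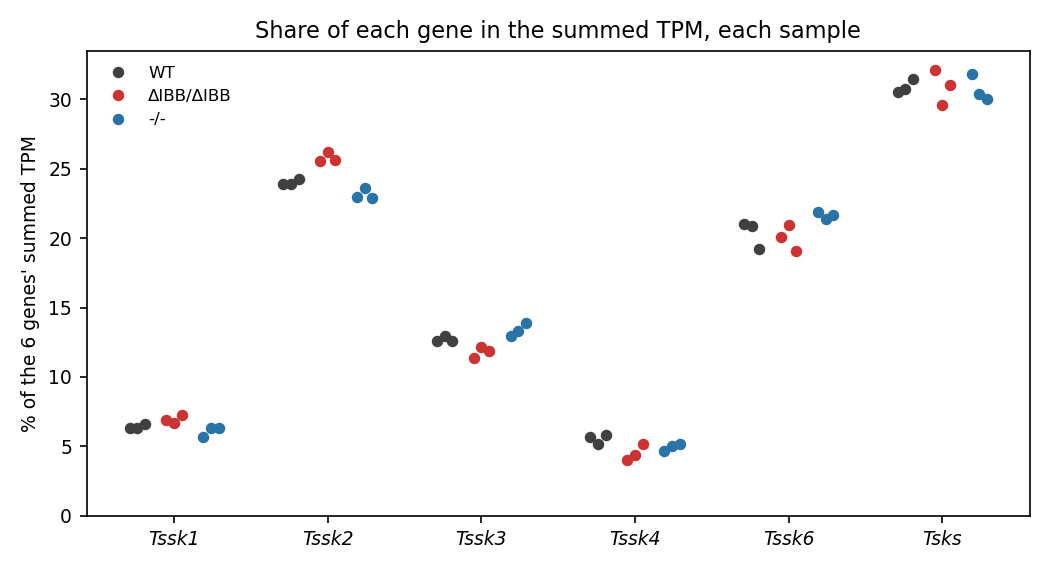
Share of each gene in the summed TPM of the 6 genes (vertical axis, %), 1 point per sample. *Tssk1* and *Tssk2* points of *Kpna6*ΔIBB/ΔIBB (red) lie above WT (dark grey), those of *Tssk3* and *Tssk4* lie below, and those of *Tssk6* and *Tsks* overlap with WT.

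Markers of round and elongating spermatids were lower alongside the 6 genes, whereas no earlier germ cell stage had all its markers called. In tissue sections, the study also found fewer leptotene to zygotene and pachytene spermatocytes in *Kpna6*ΔIBB/ΔIBB testes. Against WT, all 10 round spermatid markers and all 10 elongating spermatid markers were called lower in *Kpna6*ΔIBB/ΔIBB testes, with median log2 fold changes of -0.50 and -0.36. The summed round spermatid markers fell from 1448 to 1589 TPM in WT to 1137 to 1318 TPM, and the elongating spermatid markers from 68450 to 78470 TPM to 57100 to 65310 TPM. Of 10 pachytene spermatocyte markers, 1 was lower and none higher (median -0.07), of 10 leptotene to zygotene markers 3 were lower and 2 higher (median -0.09), and of 10 spermatogonium markers 1 was lower and 3 were higher (median 0.24). All 10 Sertoli cell markers were higher, with sums of 1365 to 1696 TPM against 884 to 987 TPM. The study, in contrast, found fewer Sertoli cells per tubule in adults of this line. Of the other somatic markers, 3 of 8 Leydig, 3 of 8 peritubular and endothelial and 3 of 6 macrophage genes were higher and none lower. The Leydig sums overlapped, with 1975 to 2837 TPM against 1984 to 3004 TPM in WT. Of 5 blood markers, 1 was higher and 4 were lower. These counts stand beside 18.9% lower and 17.7% higher calls among all genes tested. In *Kpna6*-/- testes 0 of the 10 round spermatid markers were called in edgeR (median -0.10). At an unadjusted P-value below 0.05 in edgeR, 4 of them passed, beside 14.9% of all genes. Of the 10 Sertoli cell markers 1 was called higher, beside 1.6% of all genes called in either direction. The part of cell composition in the decrease of the 6 genes was not tested.

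Set against the round spermatid markers, the 6 genes did not behave alike. Per 100 TPM of these markers, *Tssk1* amounted to 7.67 to 7.93 TPM in WT and 8.62 to 9.74 TPM in *Kpna6*ΔIBB/ΔIBB, and *Tssk2* to 28.8 to 30.0 TPM in WT and 30.7 to 36.5 TPM in *Kpna6*ΔIBB/ΔIBB. *Tssk4* was below the WT range on this scale, with 5.64 to 6.19 TPM against 6.54 to 6.93 TPM. *Tssk3*, *Tssk6* and *Tsks* overlapped with WT. Against the elongating spermatid markers all 6 genes overlapped with WT, and against the pachytene markers all 6 were below the WT range. The share of all genes below WT on that scale was not determined. The pachytene sum, 5468 to 5902 TPM in WT, came mainly from *Ldhc* (3360 TPM in WT replicate 1). The elongating spermatid sum came mainly from *Tnp1*, *Tnp2*, *Prm1* and *Prm2* (15000, 12900, 25100 and 17600 TPM in WT replicate 1). The study reported lower mRNA of these genes in sorted round spermatids of *Kpna6*ΔIBB/ΔIBB mice, so this sum does not measure cell number alone. In *Kpna6*-/- testes *Tssk3* (17.1 to 18.7 against 14.9 to 16.3 TPM) and *Tssk6* (26.7 to 31.6 against 22.8 to 26.2 TPM) were above WT per 100 TPM of round spermatid markers. These ratios were chosen after the values had been seen and carry no test.

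The partners and substrates of the kinases did not move as a block. Against WT, *Kpna6*ΔIBB/ΔIBB testes had 3 of 14 listed genes called higher and 7 called lower, with a median log2 fold change of -0.11, beside 36.6% of all genes called in either direction. The lower calls numbered 4 with library size only and in limma on log2(TPM + 1), and 5 to 7 with 1 sample left out. *Pdpk1*, whose product can activate TSSK3, was lower (-0.48, adjusted P-value 2.67e-05, edgeR's quasi-likelihood test). *Oaz3*, which encodes a spermatid inhibitor of ornithine decarboxylase, was lower (-0.46), as was *Crem* (-0.45), the spermatid transcription factor gene. *Tsacc*, the co-chaperone gene of TSSK6, was lower (-0.30, adjusted P-value 0.000461). *Odf2*, the substrate of TSSK4, was lower by a small amount (-0.15, adjusted P-value 0.00418). That call was lost with library size only (-0.05, adjusted P-value 0.147) and in limma on log2(TPM + 1) (-0.07, adjusted P-value 0.178). The chaperone genes *Hsp90ab1* (0.43) and *Hspa8* (0.39) were higher, and so was the histone gene *H2afx* (0.26, adjusted P-value 0.00786), whose phosphorylation in spermatids has been linked to TSSK6. *Hsp90aa1*, the other cytosolic HSP90 gene, named after its values were seen, was called lower in edgeR (-0.11, adjusted P-value 0.0178). On the TPM scale its groups overlapped, with means of 1139 TPM in WT and 1153 TPM in *Kpna6*ΔIBB/ΔIBB testes. In *Kpna6*-/- testes 0 of the 14 genes were called in edgeR, beside 1.6% of all genes. DESeq2 and limma also called 0, though limma on log2(TPM + 1) called only 32 of all 18681 genes. At an unadjusted P-value below 0.05 in edgeR, 2 of the 14 passed, beside 14.9% of all genes. Between the mutant lines 2 were higher (*Hsp90ab1* and *Hspa8*) and 6 lower in *Kpna6*ΔIBB/ΔIBB, beside 13.5% higher and 16.8% lower calls among all genes.

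Among 14 other germ cell kinase genes, 2 were called higher and 4 lower when *Kpna6*ΔIBB/ΔIBB testes were set against WT (median -0.14), beside 36.6% of all genes called in either direction. The balance turned with library size only (3 lower, 4 higher) and in limma on log2(TPM + 1) (2 lower, 4 higher). *Camk4*, a calcium-dependent kinase of spermatids, was lower (-0.56, adjusted P-value 4.06e-05, edgeR's quasi-likelihood test), and *Mak*, the male germ cell-associated kinase, fell to a similar degree (-0.45). *Hipk4* (-0.29) and *Stk33* (-0.14) were lower in that test, and neither passed in limma on log2(TPM + 1), nor did *Stk33* with library size only (-0.05, adjusted P-value 0.272). *Nek2* (0.22), a centrosomal kinase, and *Cdk16* (0.18), a cyclin-dependent kinase needed for spermiogenesis, were higher. *Stk31* was not called against WT (-0.20, adjusted P-value 0.0743), though it passed without WT replicate 1 (-0.30, adjusted P-value 0.00154), in DESeq2 (adjusted P-value 0.0304), without a filter (0.0464) and in the fit of all 9 samples (0.039). It was lower against *Kpna6*-/- (-0.19, adjusted P-value 0.00422), a call lost in 4 alternatives, with adjusted P-values up to 0.191. *Prkaca*, the catalytic subunit gene of protein kinase A, was called higher between the mutant lines (0.11, adjusted P-value 0.0430), a call lost in 5 of the 6 fits that leave out 1 sample. Against WT it was not called in edgeR with TMM (adjusted P-value 0.125), but passed with library size only (0.19, adjusted P-value 0.00481) and in limma on log2(TPM + 1) (0.22, adjusted P-value 0.00958). Between the mutant lines, *Kpna6*ΔIBB/ΔIBB testes had 2 kinase genes called higher and 4 called lower, beside 30.3% of all genes called. With library size only the counts were 5 higher and 2 lower, and in limma 4 higher and 2 lower. *Stk33* (-0.10) was 1 of the 4 called lower in edgeR with TMM, and its call was lost with any 1 of the 6 samples left out. No kinase on the list was called in *Kpna6*-/- against WT by edgeR, DESeq2 or limma. Of all 18681 genes, edgeR called 1.6% and limma on log2(TPM + 1) only 32 genes. At an unadjusted P-value below 0.05 in edgeR 1 passed, beside 14.9% of all genes.

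**Figure D4:**
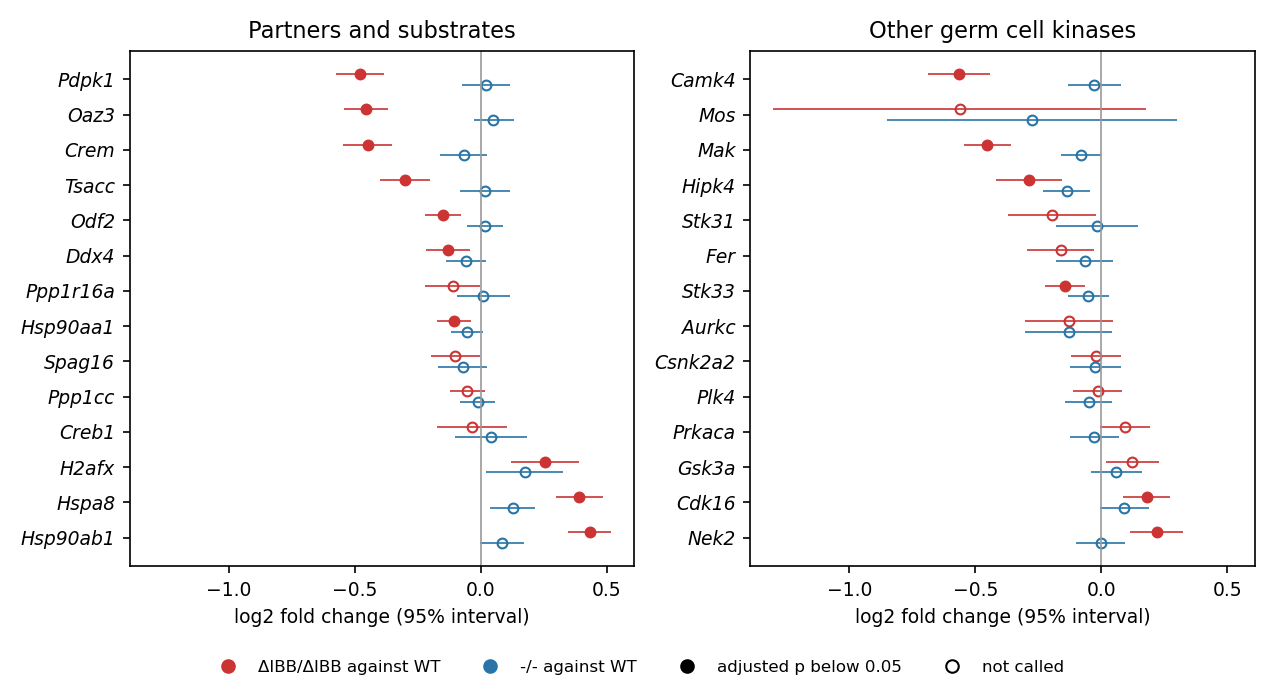
Log2 fold changes (horizontal axes, 95% intervals from edgeR) of 14 partner and substrate genes (left) and 14 other germ cell kinase genes (right) in *Kpna6*ΔIBB/ΔIBB (red) and *Kpna6*-/- (blue) against WT; filled points have an adjusted P-value below 0.05. *Pdpk1* (-0.48) and *Camk4* (-0.56) lie lowest among the called genes, *Hsp90ab1* (0.43) lies highest, and all blue points are open.

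*Tssk3* lies close to the mutated gene, and other genes of that neighbourhood differed in both lines. Within 500 kb of *Tssk3*, 30 of 48 genes were tested. Against WT, *Kpna6*ΔIBB/ΔIBB testes had 9 of them called higher and 7 lower, beside 36.6% of all genes called, and *Kpna6*-/- testes had 3 called higher and 4 lower, beside 1.6% of all genes. Without WT replicate 1 the counts were 7 higher and 8 lower in the former and 3 higher and 5 lower in the latter. *Kpna6* itself is among the lower calls, with and without that replicate in *Kpna6*ΔIBB/ΔIBB and only without it in *Kpna6*-/-. *Hdac1*, a histone deacetylase gene, had reduced levels in the *Kpna6*ΔIBB/ΔIBB (-1.03) and the *Kpna6*-/- line (-1.07). *Dcdc2b*, of the doublecortin domain family, was also lower in both (-1.65 and -1.17), and *Hpca*, which encodes the calcium sensor hippocalcin, was higher in both (0.99 and 0.63). *Tssk3* differed from these genes in that it was called lower in *Kpna6*ΔIBB/ΔIBB and was not called in *Kpna6*-/-. Next to it, *Fam229a* was slightly lower in *Kpna6*ΔIBB/ΔIBB (-0.16, adjusted P-value 0.0400), a call lost without WT replicate 1 (-0.12, adjusted P-value 0.130), and *Bsdc1* was not called (-0.02). At *Tssk3*, WT replicate 1 was close to the other WT samples (194 against 200.4 and 195 CPM). A part of the mutated locus in the level of *Tssk3* was not tested.

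**Figure D5:**
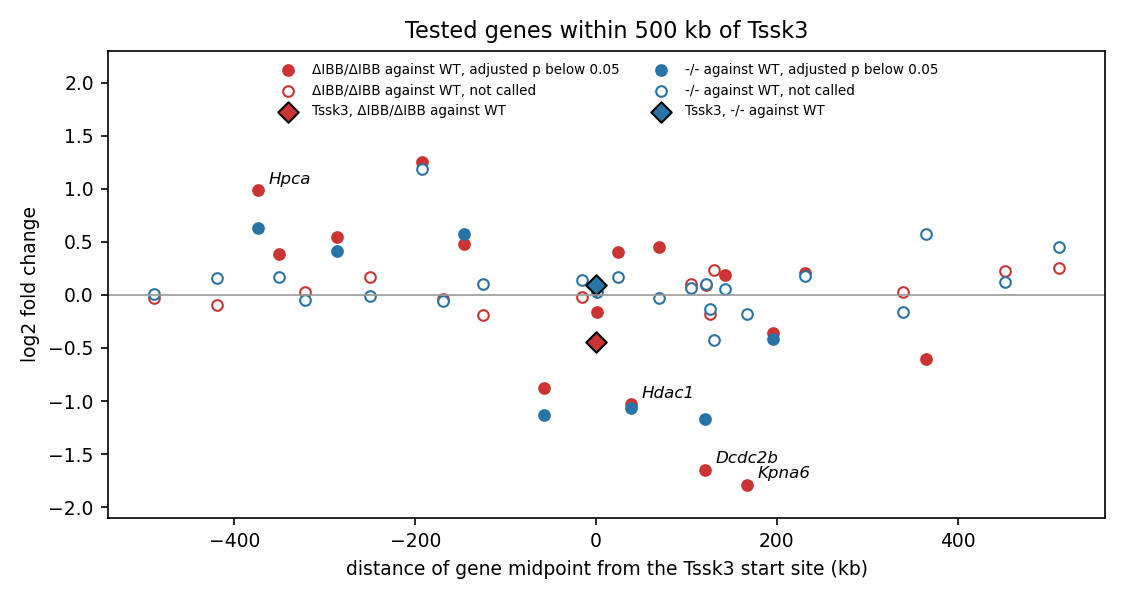
Log2 fold changes (vertical axis) of the tested genes around *Tssk3* against the distance of their midpoint from the *Tssk3* start site (horizontal axis, kb); filled points have an adjusted P-value below 0.05 and diamonds mark *Tssk3*. *Hdac1*, *Dcdc2b* and *Kpna6* lie on the positive side of *Tssk3* at -1.03, -1.65 and -1.79 in *Kpna6*ΔIBB/ΔIBB, whereas *Tssk3* lies at -0.45 in that line and at 0.09 in *Kpna6*-/-.

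Genes with the most similar profile to each of the 6 were listed by Pearson's r of log2 CPM over the 9 samples, as a description without a test because the samples fall into groups and share their scaling. *Catsper1*, which encodes a sperm calcium channel subunit, followed *Tssk1* (r = 0.987), with *Triml1* (0.992) and *Myt1* (0.989) ahead of it. *Tssk2* was closest to *Abcf2* (0.995), *Ssx2ip* (0.989) and *Hook1* (0.989), the last encoding a microtubule linker of the spermatid manchette. *Tssk3* was closest to *Arl9*, *Eef1g* and *Spata3* (0.994 each). *Tssk4* was closest to *Lyzl4* (0.997), a lysozyme-like gene, *Cct2* (0.997) and *Adam26a* (0.995). *Tssk6* was closest to *Reep6* (0.990), *Bag1* (0.990) and *Csnk1g2* (0.986). *Tsks* was closest to *Ace* (0.993), which has a germ cell form, *Actg2* (0.991) and *Myo15* (0.991). Among the 6 genes themselves r ranged from 0.72 (*Tssk1* with *Tssk6*) to 0.97 (*Tssk2* with *Tsks*, and *Tssk3* with *Tssk6*).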

How the data were processed

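RNA of 9 testis samples (3 per group) had been converted to poly(A) libraries with a kit that does not mark strand. According to the submitters' processing notes the reads were assigned to transcripts with kallisto (version 0.45); the methods of the study name the mm10 assembly. The authors deposited estimated counts and TPM values per transcript. TPM is scaled by kallisto to transcript length and to a fixed total per library; the estimated counts are not normalized. The study tested with sleuth, which was not used here.

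Of 96626 transcripts, 95301 were assigned to 32035 genes of GENCODE M21 (GRCm38); 93.3% of them had the same length as in that release. Estimated counts were summed per gene, rounded and passed through filterByExpr and TMM scaling, and the quasi-likelihood test of edgeR 4.0.16 (R 4.3.3) was run on the 6 samples of each comparison, with Benjamini-Hochberg adjustment over all genes tested and a threshold of 0.05. CPM values were scaled over all 9 samples. Group values are mean ± SD. The labels give replicate numbers without naming animals, so P-values measure only the spread between these samples. No pair of replicates agreed within sampling noise. Alternatives were DESeq2 1.42.0, RLE factors, library size only, no filter, all 9 samples in 1 fit, a replicate block, limma 3.58.1 on log2(TPM + 1) and log2(TPM + 0.1), summed counts for genes sharing sequence (blastn, at least 95% identity over 100 bases) and each sample left out. After the data were seen, the counts of *Tssk1* and *Tssk2* were also summed, *Tssk5* and the named list genes were run through the alternatives, and the genes near *Tssk3* were also counted without WT replicate 1.

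The 6 genes and the lists were chosen with earlier results of these data known. Named from the partner and kinase lists were genes past the threshold in *Kpna6*ΔIBB/ΔIBB against WT or whose call differed in another comparison, at most 8 per list by absolute log2 fold change. Near *Tssk3*, at most 4 called genes with at least 1 TPM and the largest change were named, and its 2 adjacent genes were added after their values were seen. Similar genes were the 3 with the highest r per gene. RefSeq promoter windows matched all 6 genes. Markers of spermatogonia (3 of 10 higher, 1 lower in *Kpna6*ΔIBB/ΔIBB), leptotene to zygotene spermatocytes (2 of 10 higher, 3 lower) and blood (1 of 5 higher, 4 lower) were also listed.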

Additional observations from a re-analysis of the deposited data

How the results depend on the processing

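The count of the 6 genes called lower in *Kpna6*ΔIBB/ΔIBB against WT was 4 to 6 over 15 alternatives and 6 with any sample left out; against *Kpna6*-/- it was also 4 to 6, and in *Kpna6*-/- against WT it was 0 in every alternative run. The lower counts came from limma on TPM values, with either pseudocount, and, between the mutant lines, from library size only (5). Over the alternatives the log2 fold change against WT ranged from -0.74 to -0.51 for *Tssk4*, from -0.46 to -0.32 for *Tssk3*, from -0.40 to -0.24 for *Tssk6*, from -0.37 to -0.21 for *Tsks*, from -0.26 to -0.10 for *Tssk1* and from -0.24 to -0.11 for *Tssk2*. Reversed values were those of *Tsks* in *Kpna6*-/- against WT (0.034), which ran from -0.008 (without *Kpna6*-/- replicate 1) to 0.058 with 1 sample left out, and of *Stk33* between the mutant lines (-0.104), which was 0.043 in limma on TPM values with either pseudocount. The cause was not tested.

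Samples with the same replicate number did not deviate together (r from -0.056 to 0.078 over 9 pairs, beside -0.14 to 0.063 for other pairs). The values gave no sign of pairing by number, but they cannot exclude a small shared effect. With the replicate block 6, 0 and 6 of the 6 genes were called in *Kpna6*ΔIBB/ΔIBB against WT, *Kpna6*-/- against WT and *Kpna6*ΔIBB/ΔIBB against *Kpna6*-/-, and the calls over all genes moved from 6874 to 6793, from 299 to 229 and from 5673 to 6032.

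Calls over all genes in *Kpna6*-/- against WT moved from 299 to 477 with DESeq2, 624 without a filter, 32 and 33 in limma with pseudocounts of 1 and 0.1, and 92 to 518 with 1 sample left out. Between the mutant lines, library size only moved the calls from 3150 lower and 2523 higher to 2016 lower and 4931 higher, and the median of all genes to 0.105. Leaving 1 sample out leaves 2 in its group. The 3 samples per group limit what can be seen of differences as small as those of *Tssk3*, *Tssk4* and *Tssk6* in *Kpna6*-/- testes.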
